A study of Mus musculus with 4 samples.

Results

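Pericytes are the contractile cells wrapped around small blood vessels, and fibroblasts are the cells that make the collagen matrix of the dermis. The 10 genes described here, Pdgfra, Pdgfrb, Rgs5, Cspg4, Mcam, Des, Thy1, Twist1, Prrx1 and Fbln2, are used to recognise these mesenchymal cells, and their signal was read in melanocyte cultures from AhR knockout and wild-type mice. They were chosen by name, as 10 of the 12393 genes that the array platform's annotation ties to a probe set with a single gene symbol. A probe set is the group of short DNA probes that reads one transcript, and a gene with several was represented by the one with the highest mean signal over the 4 arrays. AhR, the aryl hydrocarbon receptor, is switched on by small molecules such as dioxins and binds DNA together with its partner ARNT.

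Both groups were cells from tail epidermis of female mice, grown for 6 to 8 weeks in a serum-free medium that favours melanocytes. The AhR knockout group held 2 mice with the strain label AhRtm1Bra, an allele that lacks exon 2 of Ahr, and the wild-type group held 2 mice of strain C57Bl/6. Each of the 4 arrays carried the RNA of a single mouse, so n was 2 in both groups. No age is given in the labels, nor the knockout mice's genetic background beyond the strain label, and the allele is labelled without restriction to a cell type.

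Signals are linear MAS5 intensities, and differences are AhR knockout minus wild type on the scale log2(signal + 16), which understates the change of dim genes. Only genes in the top 60% by mean signal were tested, with 81.1 as the lowest mean signal admitted, and genes below it are called dim. With limma and Benjamini-Hochberg adjustment, 71 of 7436 tested genes passed an adjusted p of 0.05, which is 0.955%, with 15 higher and 56 lower in knockout. That count was 1360 without AhR knockout 1, 1031 without AhR knockout 2, 152 without wild type 1 and 20 without wild type 2. AhR knockout 2 stood apart in the ratio of 3' to 5' control probe sets of Gapdh, which was 1.98 and 11.9 in AhR knockout 1 and 2, against 2.13 and 2.85 in wild type 1 and 2. The brighter Ahr probe set read 241 and 843 in the knockout arrays, against 825 and 874 in the wild-type arrays, so it did not separate the genotypes, and whether it lies outside the deleted exon was not analysed here. The cultures carried strong melanocyte signal, with Dct, an enzyme of melanin synthesis, at 20442 and 32201 in knockout and 18026 and 16814 in wild type.

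The platelet-derived growth factor receptors Pdgfra and Pdgfrb are tyrosine kinases through which PDGF ligands drive the growth and migration of fibroblasts and pericytes. Thy1, Mcam and Cspg4 are cell surface proteins, and Des is the intermediate filament protein desmin. Rgs5 dampens G-protein signalling in pericytes, Twist1 and Prrx1 are transcription factors of mesenchyme, and Fbln2 is a fibulin of the extracellular matrix. Several of these genes are not restricted to the cells they are used to mark, since Cspg4 and Mcam are also known from pigment cell tumours and Mcam from endothelium.

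Of the 10 genes, 5 passed the signal filter and 5 were dim. Thy1, Pdgfrb, Cspg4, Mcam and Fbln2 were tested, and Pdgfra, Des, Prrx1, Rgs5 and Twist1 were dim. Of the 5 tested genes, 0 passed over all genes tested by limma, beside the 0.955% of all tested genes that did, and 2, Cspg4 and Fbln2, had an unadjusted p under 0.05, beside 20.6% of all tested genes. Cspg4 was higher in both knockout arrays and Fbln2 lower, and the other 3 had overlapping groups. Among all tested genes, 55.4% had groups that did not overlap, so 2 of 5 is near that background. The median log2 difference of the 5 tested genes was -0.52, beside 0.0055 for all tested genes. The median rests on single arrays, at -1.01 without AhR knockout 1, -0.31 without AhR knockout 2, 0.23 without wild type 1 and -0.13 without wild type 2. An exact permutation test of 2 against 2 arrays cannot go below p = 0.333, so each p rests on the spread that limma borrows across genes. The cultures are bulk samples, in which fewer cells of a type and less RNA per cell cannot be told apart.

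**Figure D1:**
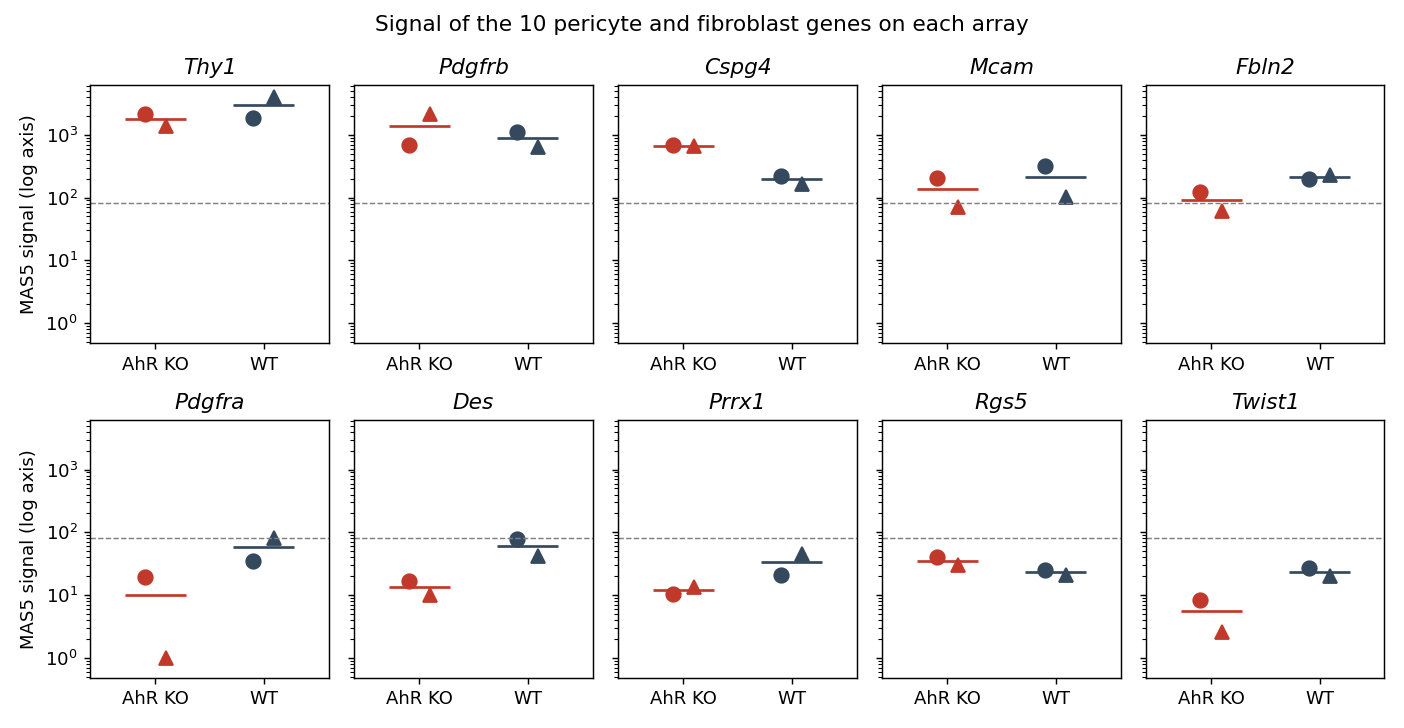
MAS5 signal on a logarithmic axis for the 10 genes, with AhR knockout in red and wild type in dark blue. Circles are mouse 1, triangles are mouse 2, short lines are group means, and the dashed line is the lowest mean signal of the tested genes, 81.1. Cspg4 lies higher in both knockout arrays, at 683 and 667, and the lower row holds the 5 dim genes.

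Cspg4 encodes the NG2 proteoglycan, a transmembrane protein on pericytes, glial progenitors and melanoma cells that binds growth factors and collagen. It had the smallest p of the 5 tested genes. Its brighter probe set, 1423341_at, read 683 and 667 in AhR knockout 1 and 2, against 223 and 168 in wild type 1 and 2. Both knockout arrays were above both wild-type arrays, and the knockout arrays lay close together. The log2 difference was 1.72 ± 0.36 (SE), with a 95% interval of 0.92 to 2.53, a size of 3.30-fold on that scale. The adjusted p was 0.057, so Cspg4 did not pass. Its second probe set, 1450944_at, was also above the filter and read 303 and 355 in knockout and 122 and 136 in wild type. That probe set differed by log2 1.25 in the same direction, and with every probe set fitted by itself its limma adjusted p was 0.13, beside 0.084 for the brighter one.

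The difference in Cspg4 was nearly the same in the knockout arrays taken singly, at log2 1.74 in AhR knockout 1 and 1.70 in AhR knockout 2. It was thus as large without AhR knockout 2, whose Gapdh ratio stood apart. A fit without 1 of the knockout arrays assumes that the lone one varies as the wild-type arrays do, so its p is not given here. Without wild type 1 the difference was log2 1.91, and without wild type 2 it was 1.53.

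Fbln2, fibulin 2, is a secreted glycoprotein of basement membranes and elastic fibres. Its single probe set, 1423407_a_at, read 123 and 61.7 in AhR knockout 1 and 2, against 200.4 and 232 in wild type 1 and 2. The wild-type arrays were close together and both lay above both knockout arrays, of which AhR knockout 2 was the lower. The log2 difference was -1.16 ± 0.40 (SE), a size of 2.23-fold, with a 95% interval of -2.05 to -0.26 and limma adjusted p = 0.16. Its size depended on which knockout array was used, at -0.74 for AhR knockout 1 and -1.58 for AhR knockout 2. AhR knockout 2, which gave the larger size, was the array whose Gapdh ratio stood apart. Without wild type 1 the difference was -1.26, and without wild type 2 it was -1.06.

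The upstream sequences of Cspg4 and Fbln2 are shown because these were the tested genes whose groups did not overlap, and because the AhR and ARNT pair is known to bind the core motif GCGTG. Each window runs from 250 bases before to 50 bases after the start of the gene on the plus strand of GRCm38.p6, from RefSeq, written 5′ to 3′. The windows are chr9:56864854-56865153 for Cspg4 and chr6:91212514-91212813 for Fbln2, and capitals mark a match to GCGTG or to its reverse complement CACGC.
Cspg4: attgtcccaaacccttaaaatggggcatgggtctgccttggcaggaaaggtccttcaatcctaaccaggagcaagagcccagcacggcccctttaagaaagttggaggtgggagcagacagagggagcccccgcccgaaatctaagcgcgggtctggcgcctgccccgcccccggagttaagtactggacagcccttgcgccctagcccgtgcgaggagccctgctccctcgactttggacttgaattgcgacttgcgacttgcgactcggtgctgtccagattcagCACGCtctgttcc
Fbln2: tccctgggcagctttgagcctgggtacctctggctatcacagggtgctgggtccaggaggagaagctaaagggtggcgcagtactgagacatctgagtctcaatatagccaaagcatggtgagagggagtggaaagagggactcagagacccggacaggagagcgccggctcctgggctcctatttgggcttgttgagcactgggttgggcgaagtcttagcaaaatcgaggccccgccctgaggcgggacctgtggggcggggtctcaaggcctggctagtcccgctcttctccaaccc

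The Cspg4 window held 1 match, on the minus strand and beginning 37 bases after the start site, and the Fbln2 window held none. Promoter windows were at hand for 8 of the 10 genes, and Cspg4 was the single gene of the 8 with a match. Over all 32851 windows of the same length, 32.4% held the motif on either strand, so a match in 1 of 8 windows is no more than a description of these letters. Thy1 and Pdgfrb had no window in the table.

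Pdgfrb, the PDGF receptor of pericytes and fibroblasts, was represented by the probe set 1436970_a_at. It read 678 and 2131 in AhR knockout 1 and 2, against 1119 and 635 in wild type 1 and 2. The highest reading and a reading between the wild-type values both belonged to knockout, so the groups overlapped. The log2 difference was 0.51 ± 0.54 (SE), with a 95% interval of -0.70 to 1.72 and limma adjusted p = 0.61. The sign was that of AhR knockout 2, whose Gapdh ratio stood apart, since AhR knockout 1 alone gave -0.31 and AhR knockout 2 alone gave 1.32. Without wild type 1 it was 0.91, and without wild type 2 it was 0.10. The other Pdgfrb probe set, 1417148_at, went the other way. It was dim, at 16.1 and 15.6 in knockout and 71.0 and 54.2 in wild type, with both knockout arrays below both wild-type arrays and a log2 difference of -1.30. The data thus give no single direction for this receptor, and the mean of its probe sets differed by -0.40 with adjusted p = 0.59.

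Pdgfra, the PDGF receptor used most widely to mark fibroblasts, was dim on both of its probe sets. The brighter one read 19.1 and 0.99 in AhR knockout 1 and 2, against 35.4 and 82.2 in wild type 1 and 2. The other read 5.29 and 2.98 in knockout, against 16.3 and 12.9 in wild type. On both probe sets each knockout array was below each wild-type array, with log2 differences of -1.54 and -0.60. Only the brighter probe set on wild type 2 came up to the level of the filter, and the gene was not tested. Without the filter its limma adjusted p was 0.25.

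Thy1 is a glycoprotein anchored to the outer membrane of fibroblasts, neurons and T cells. It read 2181 and 1363 in AhR knockout 1 and 2, against 1886 and 4063 in wild type 1 and 2. Wild type 2 was the highest array and AhR knockout 2 the lowest, and AhR knockout 1 lay above wild type 1. The log2 difference was -0.68 ± 0.44 (SE), with a 95% interval of -1.66 to 0.31 and limma adjusted p = 0.40. Leaving out wild type 2 took the difference to -0.13, against -1.23 without wild type 1, -1.01 without AhR knockout 1 and -0.34 without AhR knockout 2.

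Mcam, or CD146, is an adhesion molecule of pericytes, endothelium and melanoma cells. It read 205 and 70.4 in AhR knockout 1 and 2, against 318 and 102 in wild type 1 and 2. In both genotypes mouse 1 was well above mouse 2, and this spread was wider than the difference between the groups. The log2 difference was -0.52 ± 0.58 (SE), with a 95% interval of -1.81 to 0.77 and limma adjusted p = 0.62. The sign turned with the arrays used, at 0.16 without AhR knockout 2 and 0.23 without wild type 1, against -1.20 without AhR knockout 1 and -1.27 without wild type 2. The value without AhR knockout 1 rests on AhR knockout 2, whose Gapdh ratio stood apart.

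Des, the filament protein of muscle cells and pericytes, had a pair of probe sets of nearly equal mean signal that opposed each other. The one with the higher mean, 36.7, read 16.9 and 10.2 in AhR knockout 1 and 2, against 77.5 and 42.0 in wild type 1 and 2. The other, with a mean of 34.7, read 51.1 and 50.1 in knockout, against 16.8 and 20.7 in wild type. Each separated the groups, by log2 -1.33 and 0.94, so the choice of probe set decides the sign of Des in these cultures.

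Prrx1, a homeobox factor of limb and skin mesenchyme, showed the same disagreement among its 4 probe sets. The probe set chosen by its mean of 22.6 read 10.4 and 13.4 in AhR knockout 1 and 2, against 21.1 and 45.6 in wild type 1 and 2, a log2 difference of -0.78. A probe set with a mean of 21.5 read 28.9 and 37.4 in knockout, against 8.89 and 10.99 in wild type, a log2 difference of 0.92. The remaining 2 differed by 0.77 and -0.0053. No direction can be read for Prrx1 from these values.

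Twist1, a basic helix-loop-helix factor that specifies mesenchyme, had a single probe set. It read 8.49 and 2.54 in AhR knockout 1 and 2, against 27.5 and 19.8 in wild type 1 and 2. Both knockout arrays were below both wild-type arrays, with a log2 difference of -0.89, at a signal that was low on every array. Twist1 lies on chromosome 12, the chromosome of Ahr, with 3 protein-coding genes between them in the RefSeq table of GRCm38.p6, of which 1 was measured and 0 were bright enough to test. Whether DNA flanking the deleted Ahr allele bears on its probe set was not tested.

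Rgs5, one of the genes most used to mark pericytes, was dim on all 4 of its probe sets. The brightest read 40.6 and 30.0 in AhR knockout 1 and 2, against 25.2 and 21.1 in wild type 1 and 2, a log2 difference of 0.38. The other probe sets read 13.5 or less on every array and differed by -0.21, -0.44 and 0.17. Rgs5 therefore had low signal in both genotypes, and the sign differed among its probe sets.

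**Figure D2:**
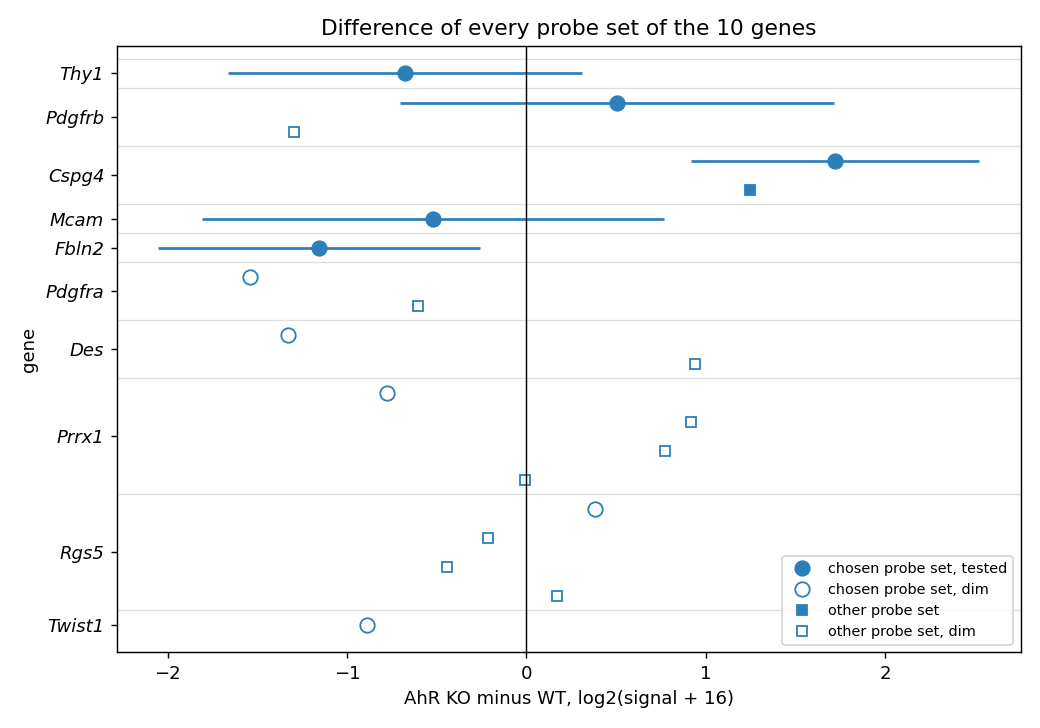
Log2 difference, AhR knockout minus wild type, for each of the 20 probe sets of the 10 genes. Circles are the probe set with the highest mean, squares the others, open symbols are dim, and bars are 95% intervals from limma for the 5 tested genes. Both Cspg4 probe sets lie to the right of 0, both Pdgfra probe sets to the left, and Pdgfrb, Des, Prrx1 and Rgs5 have probe sets on both sides.

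In all, 6 of the 10 genes had more than 1 probe set, and in 4 of the 6 the probe sets pointed both ways. Cspg4 and Pdgfra were the exceptions, with Cspg4 higher and Pdgfra lower on every probe set. By the brightest probe set, 4 of the 5 dim genes lay below wild type in both knockout arrays without overlap. Among all genes under the filter, 11.6% did so. The fifth, Rgs5, lay above wild type in both knockout arrays, as did 30.5% of all genes under the filter. The members just inside and just outside the filter were Fbln2, with a mean signal of 154, and Des, with 36.7.

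None of the ligands of the PDGF receptors passed the test. Pdgfb, which draws pericytes to vessels and is made by endothelium among other cells, read 196 and 110 in AhR knockout 1 and 2, against 530 and 549 in wild type 1 and 2. Its log2 difference was -1.77 ± 0.39 (SE) with limma adjusted p = 0.064. Pdgfd, a ligand of Pdgfrb that needs proteolysis to become active, read 45.0 and 25.1 in knockout, against 108 and 157 in wild type, which is -1.55 on the log2 scale, with adjusted p = 0.087. Both ligands separated the groups, as did 55.4% of all tested genes in either direction, and neither passed. Pdgfd read above the filter's 81.1 on the wild-type arrays alone. Of the remaining ligands, named after their values were seen, Pdgfc differed by -1.08 with adjusted p = 0.18 and Pdgfa by 0.14 with adjusted p = 0.86. Over the list of PDGF ligands and signalling proteins, 13 of 15 genes were tested, 7 were higher and 6 lower, and 0 passed in limma. Of the 13 tested, 6 were lower with an unadjusted p under 0.05. Of all 7436 tested genes, 12.9% were lower with such a p. Crk, an adaptor protein downstream of receptor kinases, was among those 6, at log2 -1.22 with adjusted p = 0.12. The median of the list was 0.036.

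None of the further genes of pericytes and vessel walls passed the test. Of 15 genes listed, 14 were measured and 5 tested. All 5 tested ones lay below wild type on average (median -0.52, log2), and 0 passed in limma, with 1 at an unadjusted p under 0.05. Of all tested genes, 12.9% were lower with such a p. Cald1, the actin regulator caldesmon, read 3354 and 5730 in AhR knockout 1 and 2, against 7211 and 11358 in wild type 1 and 2, a difference of -1.04 with adjusted p = 0.16. Tagln, an actin-binding protein of smooth muscle, differed by -0.79 with adjusted p = 0.25. Acta2, smooth muscle actin, differed by -0.52 with adjusted p = 0.49 and had overlapping groups. The genes Abcc9, Anpep, Vtn, Cd248 and Higd1b, which mark pericytes in several tissues, were dim, as were Notch3, Myh11, Cnn1 and Lmod1.

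Among the 10 tested further fibroblast genes 1 passed the test, beside 0.955% of all tested genes. It was also the only one with an unadjusted limma p under 0.05, and was lower, beside 12.9% of all tested genes. Col3a1, the fibrillar collagen of loose connective tissue, fell to 95.1 and 50.5 in AhR knockout 1 and 2, against 372 and 439 in wild type 1 and 2, a log2 difference of -2.29 ± 0.39 (SE) with limma adjusted p = 0.041. The call was lost without wild type 2 (adjusted p = 0.15), with quantile normalization (0.054) and without the signal filter (0.19). Averaged over the knockout arrays alone, Col3a1 lay below the filter's 81.1, so its wild-type signal let it be tested. Of 20 genes listed 19 were measured and 10 tested, with 6 lower, 4 higher and a median of -0.31. The 4 higher, Dcn, Vim, Pdpn and Sparc, differed by 0.39, 0.24, 0.15 and 0.046, each with overlapping groups. S100a4, a calcium-binding protein of motile cells, differed by -0.71 and Fstl1, a secreted glycoprotein, by -0.54, with adjusted p = 0.31 and 0.38. Dim genes of this list included Col1a1, Lum, Dpt, Fap and Postn, and Col1a1 read 32.6 and 2.47 in knockout, against 74.4 and 72.2 in wild type. Other dim genes of the list went otherwise. Col1a2 read 51.8 and 75.9 in knockout, against 62.2 and 83.1 in wild type, with overlapping groups. Lum was higher in both knockout arrays, at 21.8 and 23.0, against 2.77 and 13.5 in wild type. Col1a1, Col1a2, Lum and the 4 higher tested genes were named after their values were seen.

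Transcription factors related to Twist1 and Prrx1 were tested in 9 of 18 cases, with 2 higher, 7 lower and a median of -0.52. In limma 0 passed, and 1 was lower with an unadjusted p under 0.05, beside 12.9% of all tested genes. That gene was Zeb1, a repressor of epithelial genes, which read 442 and 808 in AhR knockout 1 and 2, against 1283 and 2014 in wild type 1 and 2. Its log2 difference was -1.40, and its adjusted p 0.12. Id2, which blocks helix-loop-helix factors, differed by 0.71, and Tcf4, an E protein that pairs with Twist1, by -1.03, both with adjusted p = 0.30. Twist2, the nearest relative of Twist1 and named after its values were seen, was dim at 35.03 and 32.1 in knockout, against 91.0 and 59.7 in wild type.

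Other fibulins did not share the sign of Fbln2. Fbln5, which links integrins to elastic fibres, read 2568 and 2234 in AhR knockout 1 and 2, against 1002 and 846 in wild type 1 and 2. Its log2 difference was 1.36 ± 0.35 (SE) with limma adjusted p = 0.087, and the groups did not overlap. Fbln1 differed by 0.82 with limma adjusted p = 0.30, also without overlap. Of all tested genes, 55.4% had no overlap in either direction. The wild-type arrays alone averaged below the filter's 81.1 for Fbln1. Nid1, the basement membrane protein nidogen, differed by -0.75 with adjusted p = 0.18. Of 4 tested genes of this list 3 were higher, and 0 passed in limma. An unadjusted p under 0.05 was found for 1 that was higher, Fbln5, and 1 that was lower, Nid1. In either direction 20.6% of all tested genes had such a p. The difference in response between Fbln2 and the other fibulins was not tested.

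Intermediate filament genes beside Des split as well. Nes, nestin, a filament protein of progenitor cells and of pericytes, read 38.0 and 136 in AhR knockout 1 and 2, against 319 and 285 in wild type 1 and 2, a log2 difference of -1.81 with limma adjusted p = 0.096. Lmna, the nuclear lamin, differed by 0.40 and Syne1 by -0.65, with adjusted p = 0.53 and 0.45. Of 5 tested genes 2 were higher and 3 lower, and 0 passed in limma. An unadjusted p under 0.05 was found for 1, Nes, and 12.9% of all tested genes were lower with such a p.

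**Figure D3:**
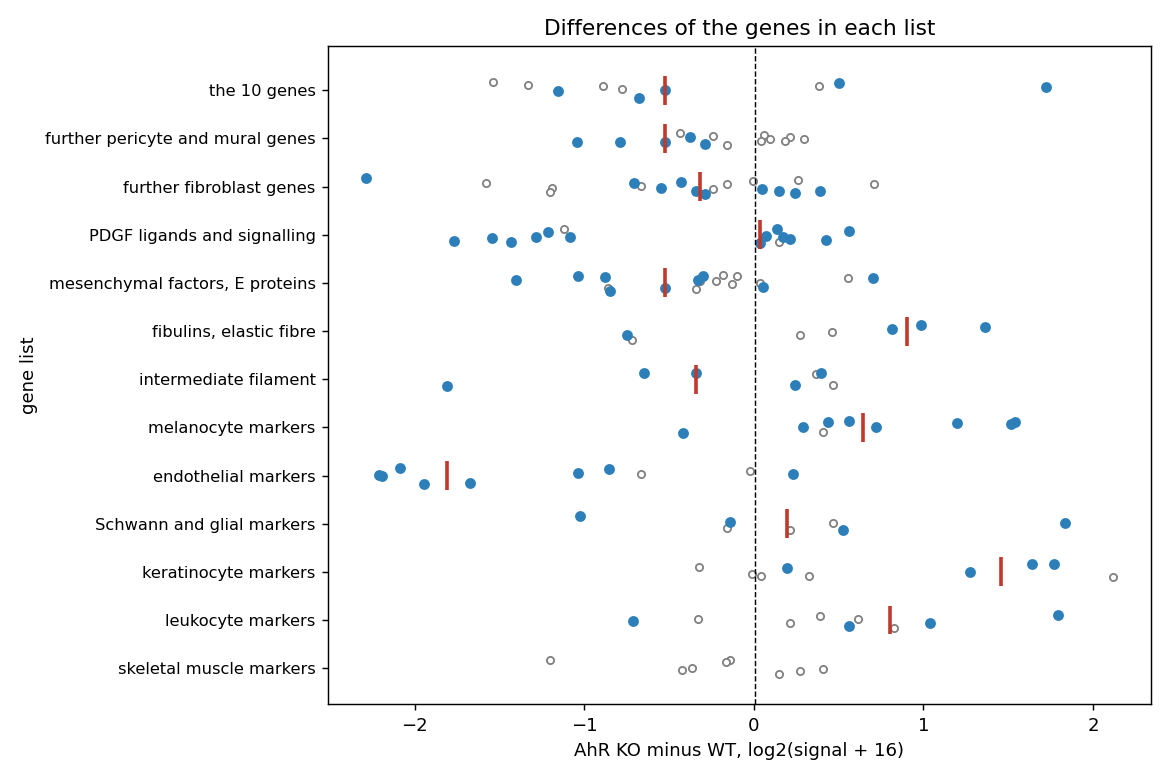
Log2 difference, AhR knockout minus wild type, of each gene in the 13 lists. Filled points were tested, open points were dim, red lines are medians of the tested genes, and the dashed line is the median of all tested genes, 0.0055. The 10 genes spread from -1.54 for Pdgfra to 1.72 for Cspg4, and endothelial markers lie lowest, with a median of -1.81.

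Markers of other cell types are given beside the 10 genes, and 0 of them passed in limma. Summed over 10 endothelial markers the signal was 7975 and 3480 in AhR knockout 1 and 2, against 14607 and 17642 in wild type 1 and 2. Of the 8 tested, 7 were lower, and 0 passed in limma. An unadjusted p under 0.05 was found for 5, all lower. Of all 7436 tested genes, 12.9% were lower with such a p. Cd34, Emcn and Tek had limma adjusted p = 0.057, 0.066 and 0.069, and Erg and Vwf were dim. The higher one, Eng, named after its values were seen, read 1420 and 1535 in knockout, against 1300 and 1211 in wild type. It differed by 0.23 with limma adjusted p = 0.72. Mcam and Pdgfb are also made by endothelium, and the part of these cells in their values was not tested.

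Summed melanocyte markers were 81552 and 108260 in knockout, against 69129 and 55192 in wild type, over 9 of 10 genes measured. Of 8 tested 7 were higher and 0 passed in limma. An unadjusted p under 0.05 was found for 3, all higher, as for 571 of all 7436 tested genes. Sox10, Tyr and Slc45a2 had limma adjusted p of 0.107, 0.103 and 0.109. The lower one, Mitf, named after its values were seen, read 1668 and 2462 in knockout, against 2771 and 2644 in wild type. It differed by -0.41 with limma adjusted p = 0.52. The summed level, like Cspg4, was higher in both knockout arrays, and the part of melanocyte number in the Cspg4 value was not tested. Markers of Schwann cells and glia, some of which also make Cspg4, summed to 7452 and 9144 in knockout, against 6149 and 5307 in wild type, with 7 of 10 measured and 4 tested. Of the 4, 2 were higher and 2 lower. S100b read 2867 and 5682 in knockout, against 900 and 1387 in wild type, a difference of 1.84 with limma adjusted p = 0.069. Ngfr differed by -1.03 with adjusted p = 0.19 and Foxd3 by 0.53 with adjusted p = 0.44. Erbb3, named after its values were seen, differed by -0.14 with adjusted p = 0.83. The higher sum in knockout thus rested mainly on S100b, and which cell type gave the S100b signal in these melanocyte cultures was not tested.

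Keratinocyte markers summed to 1702 and 313 in AhR knockout 1 and 2, against 207 and 248 in wild type 1 and 2, so AhR knockout 1 stood out. Of 9 measured 4 were tested and all 4 were higher on average, and 0 passed in limma. An unadjusted p under 0.05 was found for 1, Krt6a, as for 571 of all 7436 tested genes that were higher. Krt6a differed by 1.64, Krt5 by 1.28 and Krt14 by 1.77, with limma adjusted p = 0.24, 0.28 and 0.37. Each was above the filter's 81.1 on AhR knockout 1 alone. Krt14 read 539 and 10.9 in AhR knockout 1 and 2, against 30.8 and 11.4 in wild type. Krt5 read 305 and 58.3 in knockout, against 31.4 and 69.5 in wild type. Krt6a read 481 and 56.2 in knockout, against 50.6 and 39.6 in wild type. Leukocyte markers summed to 3892 and 3453 in knockout, against 1757 and 1703 in wild type, and Lyz2 was the largest part of the knockout sums. Of 9 measured 4 were tested, 3 were higher and 1 lower, and 0 passed in limma. An unadjusted p under 0.05 was found for 2 that were higher, as for 571 of all 7436 tested genes. The lower one, Cd68, named after its values were seen, read 808 and 208 in knockout, against 819 and 578 in wild type. Lyz2, a lysozyme of macrophages, read 2628 and 2776 in knockout, against 669 and 881 in wild type, which is 1.79 on the log2 scale with adjusted p = 0.054. C1qb, a complement subunit, differed by 1.04 with limma adjusted p = 0.16. Csf1r, a macrophage growth factor receptor, differed by 0.56 with adjusted p = 0.40. Lyz2, C1qb and Csf1r each separated the groups, as did 55.4% of all tested genes in either direction. C1qb read below the filter's 81.1 on both wild-type arrays, at 54.8 and 65.4. Ptprc and Cd3e, general leukocyte and T cell markers named after their values were seen, were dim.

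All 8 skeletal muscle markers, a lineage that makes Des, were dim and summed to 128 and 160 in knockout, against 169 and 158 in wild type. None of the marker genes read exactly 0 on any array.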

How the data were processed

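Amplified, biotin-labelled RNA of the cultures was put on single-colour arrays (labels' protocols). The authors deposited a linear intensity per probe set, made with MAS5 per the submitters' processing notes, with no version. The trimmed mean was 500.2 to 500.3 on every array, so the authors' values are scaled per array. No detection calls were used. All 4 sample columns were used.

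Of 22690 probe sets 20380 had a single symbol, updated through RefSeq gene identifiers where possible (20351). The gene's probe set with the highest mean was kept and log2(signal + 16) taken. The 7436 genes of the top 60% were fitted with limma 3.58.1 in R 4.3.3 (eBayes with a trend) and adjusted by Benjamini-Hochberg. Groups follow the sample titles, whose numbers were not used as a block. The precision is limited by the number of arrays. On simulated arrays of these 7436 genes the fit recovered 17.5% of 2-fold and 93.1% of 4-fold changes, with 6.48% of calls false, for normal noise drawn independently.

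The 10 genes and all lists were chosen with earlier results of these data known. Named genes are the 10, and for each further list those past the test or the 3 with the smallest p. The markers are described by summed signal. Other settings tried were array medians set equal, quantile normalization, a pseudocount of 1 or 64, a top 40% filter or none, the mean of probe sets, eBayes without trend or robust, the title number as a block, each array left out, and, added after seeing the data, every probe set by itself.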

Additional observations from a re-analysis of the deposited data

How the results depend on the processing

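Cspg4 was higher, and Thy1 and Fbln2 were lower, in each fit that tested them; with the top 40% Fbln2 and Mcam were not tested, and every probe set by itself was run for the count of calls and Cspg4. The dim Pdgfra, Des and Twist1 stayed lower under both normalizations, both pseudocounts, no filter, the mean of probe sets and each array left out, but the second Des probe set differed by 0.94. The count of 71 genes became 26 with quantile normalization, 43 with a pseudocount of 1, 1 without the filter (0 higher and 1 lower), 20 with the top 40%, 31 with every probe set by itself (8 higher and 23 lower) and between 20 and 1360 with an array left out. With the array medians set equal, 23 of 71 calls were higher, against 15 of 71 as deposited. Title numbers 1 and 2 occur in both groups with no stated meaning, and arrays of the same number deviated together with r = 0.353 across genes, too few pairs to show pairing. With the number as a replicate block 1406 of the 7436 tested genes were called. Among them were 2 of the 5 tested genes of the 10. These were Cspg4 at 1.72 with limma adjusted p = 1.973e-05 and Fbln2 at -1.16 with 0.013. Between 0 and 4 of the 10 were called with an array left out.

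The median of the tested genes was 0.51 with the top 40%, where 3 remained tested, and between -1.01 and 0.23 with an array left out. Pdgfrb turned to -0.40 with the mean of probe sets, and ranged from -0.31 to 1.32 with an array left out, Mcam from -1.27 to 0.23, Cspg4 from 1.53 to 1.91 and Fbln2 from -1.58 to -0.74. The dim genes followed the pseudocount. With 1 the differences were -3.12 for Pdgfra, 0.58 for Rgs5, -2.04 for Des, -2.07 for Twist1 and -1.32 for Prrx1, and with 64 they were -0.71, 0.19, -0.66, -0.33 and -0.35. With the mean of probe sets Rgs5 was -0.026, Des -0.19 and Prrx1 0.23. Signal near the background limits these genes, and the causes of the other shifts were not tested.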
